A study of Mus musculus with 2 samples.

Results

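Binding sites of CTCF were examined around 8 genes that mark radial glia and astrocytes: Sox9, Fabp7, Gfap, S100b, Aldh1l1, Slc1a2, Slc1a3 and Aqp4. A peak was assigned to a gene when its summit lay inside the gene or within 100 kb of either end, and 84 of the 62686 peaks of the optimal set met this rule. The optimal set is the authors' list of peaks that passed a filter on the irreproducible discovery rate (IDR), which scores how well peak ranks repeat. The peaks came from chromatin immunoprecipitation with an antibody against CTCF and sequencing (ChIP-seq) of hindbrain from B6NCrl mice on postnatal day 0. The labels give 1 group of 2 libraries, replicates 1 and 2, which share 1 pool of pulverised hindbrains, and differences between the libraries can therefore be purely technical. The labels name no transgene or treatment and record no sex. The pool is whole tissue, in which neurons, glia and other cells are mixed, and the files hold no expression values against which the cell types could be checked. No read counts come with the peaks, which leaves the depth unknown.

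Radial glia are the stem cells of the embryonic nervous system. They give rise to neurons and later to astrocytes, and in the cerebellum a related cell, the Bergmann glial cell, persists in the adult. CTCF is a zinc finger protein that binds a directional DNA motif, and cohesin-made chromatin loops often end where the motifs of both anchors point towards each other. Many CTCF sites are shared between tissues, and a site near a gene does not show by itself that the gene is expressed or that CTCF controls it.

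The sequences under the strongest motif-bearing peak are printed for 7 of the 8 genes, all but Aqp4, so that the sites can be compared. Each line gives 30 bases of the reference genome (RefSeq sequence of GRCm38.p6, the mm10 build), read 5′ to 3′ on the strand of the motif. Capitals mark the 14 bp match to the core CTCF consensus, called the core from here on.
Gfap, chr11:102900980-102901009, plus strand: gtctagggCCACTAGATGGCAGtgctgagc
Aldh1l1, chr6:90538133-90538162, minus strand: agttctggCCACTAGAGGGAGCccggggct
Slc1a2, chr2:102590187-102590216, plus strand: ctattttcCCAGTAGATGGCGCtcaaacaa
Slc1a3, chr15:8625513-8625542, minus strand: cagtgccaCCACAGGATGGCAGcaaatcat
Fabp7, chr10:57743639-57743668, plus strand: taaaatggACACCAGGTGGCGAtgtcactc
S100b, chr10:76202169-76202198, minus strand: acttatcaCCACCAGGGGGCGCgctggctg
Sox9, chr11:112779928-112779957, minus strand: gaggtggaCCAGCAGGGGCCCGggtggggg
The cores of Gfap, Slc1a2 and S100b matched the consensus at every base, that of Aldh1l1 had 1 mismatch, and those of Slc1a3, Fabp7 and Sox9 had 2 mismatches. These 7 peaks had signals of 510.3, 444, 407, 365, 285, 230.4 and 215 in the order Gfap, Aldh1l1, Slc1a2, Slc1a3, Fabp7, S100b and Sox9. The signal is the peak caller's own score, deposited without a unit, and ranks peaks within a list.

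The 84 peaks were, by their median, stronger than the optimal set as a whole. Their median signal was 114 (quartiles 33.5 and 219, range 12.05 to 510.3), against 73.9 (quartiles 36.8 and 191, range 7.04 to 685) over the 62677 optimal peaks on assembled chromosomes. Of the 84, 43 had a signal over 100, a value between the median and the upper quartile of the full set. The share of all optimal peaks over 100 is not given, so this count has no exact background. Of the 84, 1 was among the 1000 strongest of the 62686 optimal peaks. The core, searched within 50 bp of the summit on both strands with at most 2 mismatches, was present in 52 of 84 peaks (61.9%, Wilson 95% interval 51.2 to 71.6), close to the 65.4% of all optimal peaks. In windows centred 1 kb to the left and right of the summits it was found at 3 of 84 (3.57%) and 2 of 84 (2.38%). Over all optimal peaks these shares were 2.85% and 2.98%. Peaks with a core were the stronger ones, with a median signal of 186 against 35.3 without a core. Over all optimal peaks these medians were 110.4 and 43.8. With a single condition and 1 tissue pool there was nothing to test, and all comparisons with the full set are descriptions.

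By position, 15 of the 84 summits lay within 1 kb of an annotated start site of any gene (17.9%, against 21% of all optimal peaks). A further 6 lay in exons (7.14% against 5.18%), 38 in introns (45.2% against 40%) and 25 in intergenic sequence (29.8% against 33.8%). Summits lay inside 6 of the 8 genes, 21 in all, where 54% of protein-coding genes hold at least 1. Another 29 lay upstream and 34 downstream. All 8 genes had a summit within 100 kb, as did 91.3% of protein-coding genes. Of the cores whose strand could be read, 25 lay on the strand of the gene they were assigned to and 26 on the other strand.

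**Figure D1:**
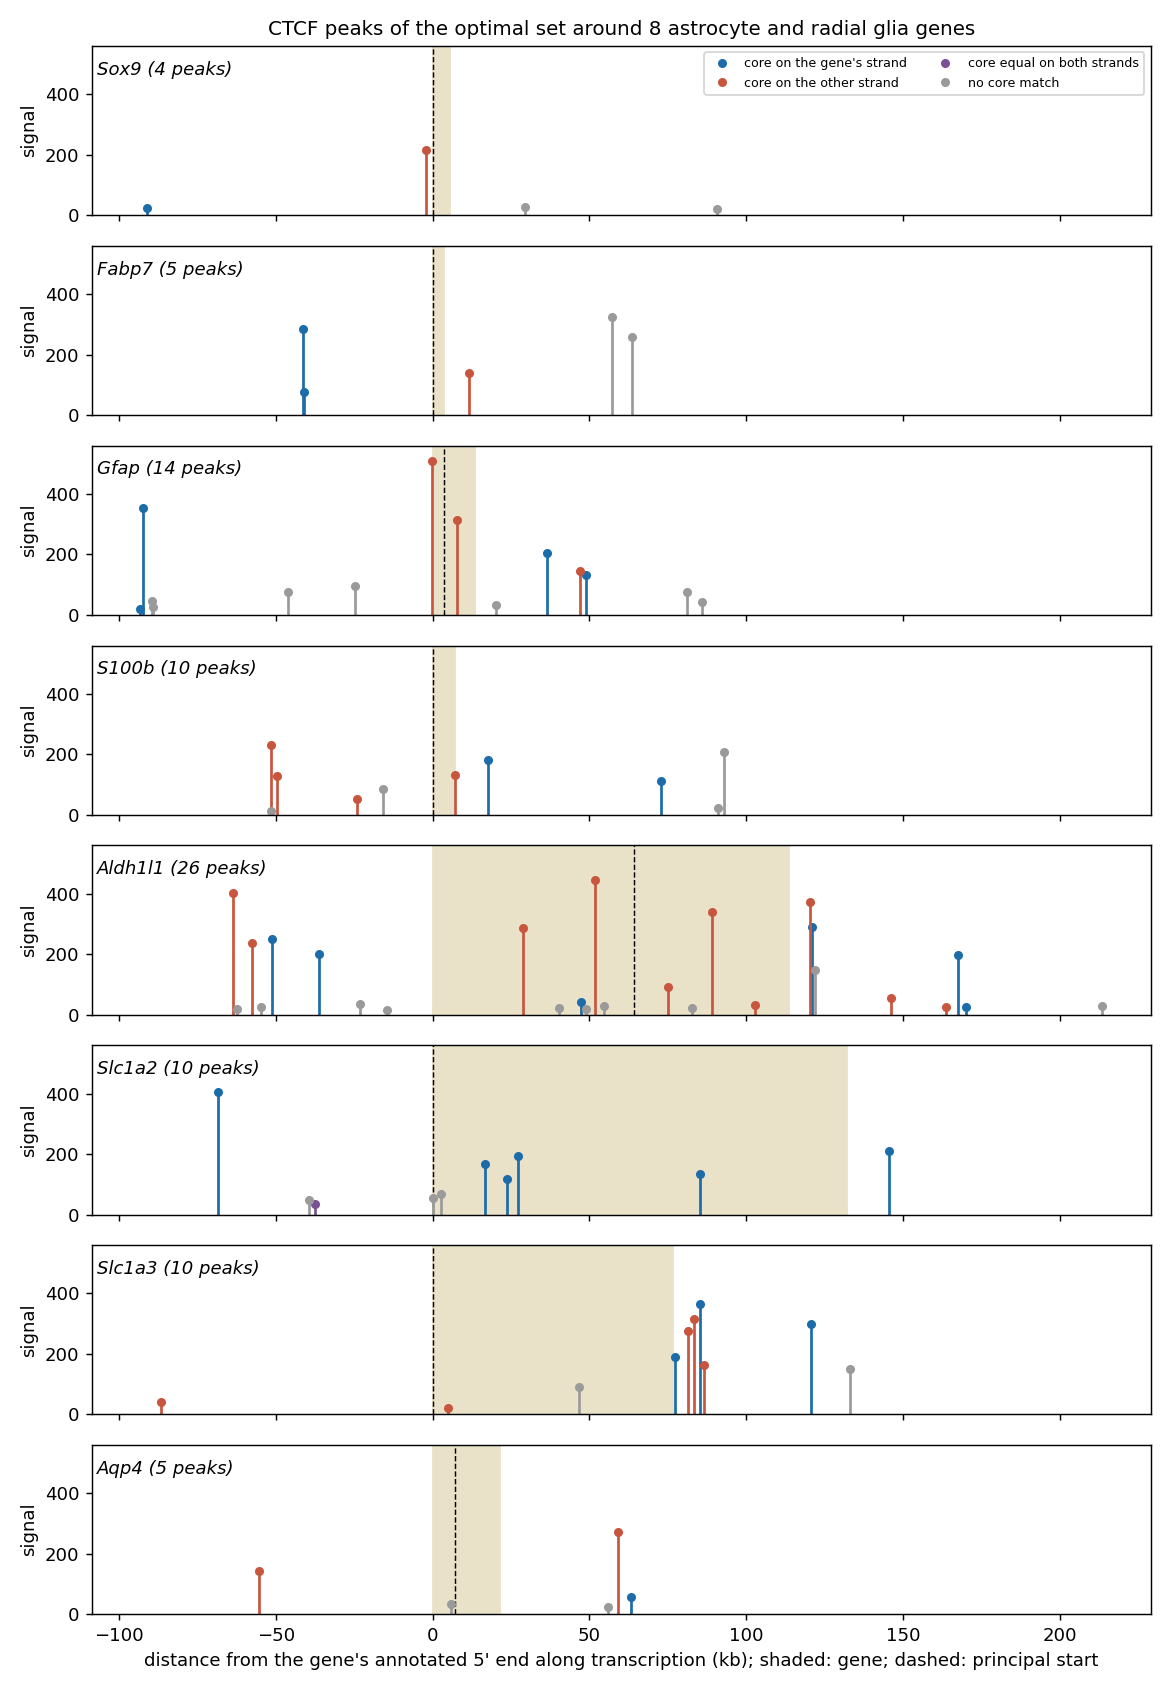
Signal of each of the 84 peaks (vertical axis, the caller's score without a unit) against distance from the gene's annotated 5′ end along its direction of transcription (horizontal axis, kb), 1 panel per gene, coloured by the strand of the core. Shading marks the gene and the dashed line the start of its principal coding transcript. The tallest peak, 510.3, stands at the 5′ end of Gfap, and 5 peaks of Slc1a3 stand together just past the end of the gene.

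Sox9 encodes a transcription factor that neural stem cells need to form glia, and astrocytes keep it. Its gene lies on chromosome 11 from 112782224 to 112787760 on the plus strand and has 3 exons. The window held 4 peaks, none of them inside the gene. The strongest was at 112779892 to 112780106, with a signal of 215, rank 13722 in the optimal set, and ranks 13617 and 12971 in replicates 1 and 2. It lay 2240 bp upstream of the start, in an intron of the long noncoding RNA gene BC006965, with its core on the minus strand, opposite to Sox9. The remaining 3 peaks had signals of 23.2, 26.5 and 21.5. The weakest of them, 85179 bp past the end of the gene, ranked 109196 in replicate 1 and 48140 in replicate 2.

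Sox9 had no other protein-coding gene in its window. Between Sox9 and Kcnj2, its upstream neighbour, 1705 kb held 18 optimal peaks, which is 1.06 per 100 kb, where the assembled chromosomes carried 2.30. The strongest of these had a signal of 292 and lay 1246 kb from Sox9. On the other side, 457 kb up to Slc39a11 held 14 peaks, or 3.06 per 100 kb. This side contained a peak at chr11:113165133-113165455 with a signal of 514, rank 224, a core on the minus strand and a distance of 378 kb from the gene. The nearest downstream core was that of a weaker peak, of signal 30.9, 251411 bp past the end of Sox9.

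Fabp7 (brain lipid-binding protein) carries fatty acids in radial glia and immature astrocytes. On chromosome 10 it runs from 57784881 to 57788450 on the plus strand, and it has 2 annotated transcripts. All 5 peaks of its window lay outside the gene, and all 5 were above the median signal of the optimal set. The upstream pair had summits 205 bp apart, 41187 and 40982 bp from the start, with signals of 285 and 75.02. Each had a core of its own on the plus strand, with 2 mismatches, centred 40.5 and 34.5 bp from the summit. The nearest peak on the other side lay in an intron of Smpdl3a, 7911 bp past the end of Fabp7, with a signal of 139 and a core on the minus strand. Fabp7 thus lay in a stretch of 52.5 kb without an optimal summit, bounded by cores that pointed inward when 2 mismatches were allowed. With at most 1 mismatch the nearest cores on the 2 sides pointed in the same direction. Its upstream neighbour, Pkib, was 43.8 kb away. The 2 farther downstream peaks had signals of 325 and 257 and no core match, and the first of these was the strongest in the window, with rank 5992 in the optimal set and ranks 5022 and 7211 in the libraries.

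Gfap encodes the intermediate filament protein that defines mature and reactive astrocytes. The gene lies on chromosome 11 from 102887336 to 102900912 on the minus strand, and its principal transcript has 9 exons. Of its 14 peaks, 7 lay upstream, 6 downstream and 1 inside. The peak at 102900849 to 102901208 was the strongest of all 84. Its signal was 510.3 and its rank 238 of the optimal set. It ranked 701 in replicate 1 and 116 in replicate 2, which are the best ranks of any of the 84 peaks in either library. The signals in these lists were 261 and 246.

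This summit lay 89 bp upstream of the annotated 5′ end of Gfap, where the noncoding transcript Gfap-203 starts, and 3870 bp upstream of the principal coding start, that of Gfap-201. The peak thus sat near an annotated start of the gene and not at the start from which the protein is made. The long noncoding RNA gene Gm26668 also spans it. The sequence is shown because it holds the strongest site of the group. It is the upstream part of the peak, chr11:102900913-102901208, on the plus strand, opposite to the gene, with the core in capitals 76 to 89 bp from the 5′ end.
Gfap: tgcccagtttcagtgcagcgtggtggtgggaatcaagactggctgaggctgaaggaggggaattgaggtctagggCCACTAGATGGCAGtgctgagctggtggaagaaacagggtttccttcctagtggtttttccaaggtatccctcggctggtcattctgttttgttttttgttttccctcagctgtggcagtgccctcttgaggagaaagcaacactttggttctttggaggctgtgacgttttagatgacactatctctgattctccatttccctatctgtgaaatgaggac

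Among all 21938 protein-coding genes, 36 (Gfap included) had a peak of at least this signal within 1 kb of a start, and 13 of those had a CpG-poor 5′ end. CpG-poor here means an observed-to-expected CpG ratio of at most 0.6 in the 1001 bp around the gene's annotated 5′ end. The ratio was 0.235 at the 5′ end of Gfap and 0.402 at its principal start.

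The other peaks around Gfap were weaker. Inside the gene, the peak at 102892962 to 102893220 had a signal of 312 (rank 6764, and 6467 and 6788 in the libraries) and lay over coding exon 6. Its core was on the plus strand like that of the upstream peak, with 1 mismatch. The second strongest of the window, at 102993019 to 102993272, had a signal of 353 and a perfect core on the minus strand, 92218 bp upstream. Downstream, the nearest peak with a core lay in an exon of Eftud2, 22860 bp past the end of the gene, with a signal of 205. The nearest neighbours were Fam187a, 0.604 kb downstream, and Kif18b, 4.62 kb upstream. Weaker peaks without a core marked starts of Gjc1 (75.7), Ccdc103 and Eftud2 (33.9), Kif18b (96.8) and C1ql1 (77.3).

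S100b encodes a calcium-binding protein made mainly by astrocytes in the brain. The gene lies on chromosome 10 from 76253853 to 76261159 on the plus strand and has 3 exons. Its window held 10 peaks, with signals from 12.05 to 230.4. A single peak, at 76260849 to 76260953, lay inside the gene, in the untranslated part of exon 3, 7034 bp from the start. It had a signal of 132 and ranked 20561 and 22530 in the libraries, with a core on the minus strand and 2 mismatches. Dip2a overlaps S100b there, so the peak belongs to both by position.

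The strongest peak around S100b was 51668 bp upstream, with a signal of 230.4 and a perfect core. A peak of signal 12.05 lay 199 bp from it and overlapped the same peaks in the library lists, so its library ranks are not its own. Starts of neighbouring genes carried peaks too, Prmt2 upstream (85.2, no core) and Dip2a downstream (182 with a core and 22.3 without). All 4 cores upstream of and inside S100b lay on the minus strand, and both downstream cores on the plus strand, so the cores beside the gene pointed away from it. The nearest upstream core was that of a peak of signal 52.4 in Prmt2, 24041 bp from the gene. Pcnt, the next gene downstream that does not overlap S100b, was 90.1 kb away.

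Aldh1l1 encodes 10-formyltetrahydrofolate dehydrogenase, an enzyme of folate metabolism and a broad astrocyte marker. The locus is on chromosome 6 from 90486427 to 90600203 on the plus strand, with 23 exons in its principal transcript. It had 26 peaks, the most of the 8 genes: 8 upstream, 10 inside and 8 downstream. Of protein-coding genes, 96.9% had fewer in their windows. Scaled to the length of the window this was 8.29 per 100 kb, and 87.3% of protein-coding genes had a lower density. Of the 26, 12 exceeded the median signal of the optimal set, and the median of the window was 48.2.

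The strongest peak of Aldh1l1, at 90538004 to 90538296, had a signal of 444 and ranked 1082 in the optimal set, 1456 in replicate 1 and 884 in replicate 2. It lay inside the annotated gene, 12640 bp before the principal start. Other strong peaks inside the gene were at 90575413 to 90575675 in intron 12 (339, perfect core) and at 90515117 to 90515365 (288, perfect core). The remaining peaks within the gene, apart from the start-site peak given last, had signals of 20.9, 42.4, 19.7, 29.5, 92.1 and 22.3 from 5′ to 3′. Within the gene, 5 of 6 cores lay on the minus strand, opposite to transcription, the exception being the peak of signal 42.4. Upstream, an intronic peak of Cfap100 reached 401, and the nearest core lay 36066 bp from the gene, beyond Klf15, under a peak of signal 201. Downstream, a pair with summits 609 bp apart in an intron of Slc41a3 had signals of 374 and 290.4, with cores on opposite strands. The peak counted at a start of Aldh1l1 was a weak one, 32.7, 118 bp from the start of the retained-intron transcript Aldh1l1-204 within the gene.

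At the edge of this window a summit 149 bp inside the 100 kb limit had a signal of 29.3, and another 54 bp outside it had 9.33. At the other genes, no summit lay this near to the limit.

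Slc1a2 encodes GLT-1, the main glutamate transporter of forebrain astrocytes. It is on chromosome 2 from 102658659 to 102790784 on the plus strand, with 11 exons in its principal transcript. Its 10 peaks comprised 3 upstream, 6 inside and 1 downstream. It was the only one of the 8 genes with a peak at its principal start. That peak, at 102658684 to 102659003, lay 185 bp into exon 1, had a signal of 55.9 and no core, and ranked 37245 and 34274 in the libraries. In intron 1 followed peaks with signals of 66.7, 167, 116 and 194, and in intron 5 a peak with a signal of 134. The peak of signal 167 lay 14 bp from the start of the noncoding transcript Slc1a2-210 and had a perfect core. The strongest, 407 (rank 2082), lay 68455 bp upstream in an intron of Pamr1, and the downstream peak, 210.0, lay 13481 bp past the end, towards Cd44.

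All 6 cores of the Slc1a2 window whose strand could be read lay on the strand of the gene, and none lay on the other. Another core matched equally well on both strands. Among 12176 protein-coding gene windows with at least 6 such cores, 0.6% had all of them on 1 strand. The 12176 include windows with more than 6 cores, in which a single strand is less likely. The share among windows with exactly 6 is not given. Neighbouring windows share peaks, and this comparison was chosen after the strands were seen. The 6 cores are shown from upstream to downstream, each on the plus strand, to let their bases be compared.
Slc1a2, 68455 bp upstream, signal 407: ctattttcCCAGTAGATGGCGCtcaaacaa
Slc1a2, intron 1, signal 167: catttctcCCAGCAGGGGGCGCtgtggggc
Slc1a2, intron 1, signal 116: ctgccctgACACCGGGGGGCGCtgcagact
Slc1a2, intron 1, signal 194: ttttccttCCAGAAGGGTGCAGtgtgaagc
Slc1a2, intron 5, signal 134: taaagtgtCCTCTAGGTGGCGCagaaggtt
Slc1a2, 13481 bp downstream, signal 210.0: tgggatttCCACTAGAGGGCACattatcaa
The cores of signals 407, 167 and 210.0 were perfect matches, that of signal 134 had 1 mismatch and those of signals 116 and 194 had 2 mismatches.

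Slc1a3 encodes GLAST, the glutamate transporter of radial glia and Bergmann glia. It occupies chromosome 15 from 8634124 to 8710764 on the minus strand, with 10 exons in its principal transcript. Of its 10 peaks, 7 lay downstream, and 5 of those lay within 15 kb of the 3′ end, between 547 and 10046 bp past it. Their signals were 191, 276, 316, 365 and 162 in the order of distance from the gene. All 5 were above the median of the optimal set, and their summits spanned 9.50 kb. Of protein-coding genes, 173 of 21938 (0.789%) had 5 or more summits in the same 15 kb, a count chosen after the cluster was seen. Their ranks in replicates 1 and 2 were 14607 and 16992, 8546 and 9922, 5227 and 8234, 4047 and 3739, and 19427 and 17060. Both libraries put the 5 peaks in the same order of strength.

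Each peak of the cluster had a core, 3 on the plus strand and 2 on the minus strand. They are shown in the order of distance from the gene, each on its own strand.
Slc1a3, 547 bp past the end, minus strand: gctggctaCCAGCAGGGGGCAGtcacctac
Slc1a3, 4735 bp past the end, plus strand: ggtccttgCCACAGGGTGGCAGcagtatcc
Slc1a3, 6845 bp past the end, plus strand: cgccctgaCCAGCAGAGGGCATaactggca
Slc1a3, 8595 bp past the end, minus strand: cagtgccaCCACAGGATGGCAGcaaatcat
Slc1a3, 10046 bp past the end, plus strand: ttccacagCCACCAGATGTCAGtgctgaca
The perfect core, nearest to the gene, was not under the strongest peak: that one, of signal 365, had 2 mismatches.

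Elsewhere in the Slc1a3 window a peak 44187 bp downstream had a signal of 299.6 and a perfect core. Inside the gene there were 2 peaks, with signals of 90.9 in intron 3 and 20.6 in intron 2. The weaker one ranked 148047 in replicate 1 and 51126 in replicate 2. Upstream, the only peak had a signal of 39.9 and lay 86454 bp from the start. No other protein-coding gene lay in the window: Gm2310 was 114 kb away downstream and Ranbp3l 257 kb away upstream.

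Some peaks of the group, most of them below the median signal of the optimal set, shared nearly the same core. The 12 bases CCAGAAGAGGGC opened the core in 5 of the 52 member peaks with a core, at Gfap, Slc1a3 and S100b (1 each) and Aldh1l1 (2), with signals from 20.6 to 147. All 5 lay in sequence that the reference marks as repeats. Among all optimal peaks 5390 had this start, 13.1% of those with a core, and 99.6% of them lay in marked repeats. Their median signal was 48.9. In total 6 of the 52 member cores lay in marked repeats (11.5%, against 21.2% of all cores), with a median signal of 53.2 against 199 for the remaining member cores.

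The question of promoter occupancy was then put to all 8 genes. A summit lay within 1 kb of an annotated start in 3 of 8 (37.5%, Wilson 95% interval 13.7 to 69.4), where 39.8% of protein-coding genes had one. These were Gfap, Slc1a2 and Aldh1l1. At principal starts the count was 1 of 8, Slc1a2, against 33.1% of protein-coding genes. The distance from the principal start to the nearest optimal summit was 185 bp at Slc1a2, 1501 bp at Aqp4, 2240 bp at Sox9, 3870 bp at Gfap, 4989 bp at Slc1a3, 7034 bp at S100b, 9719 bp at Aldh1l1 and 11480 bp at Fabp7. With 8 genes, the interval is too wide to place the group above or below the background.

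Promoter peaks were more frequent at genes with a CpG-rich annotated 5′ end. The peak could lie at any annotated start of the gene, whereas the CpG ratio was taken at the 5′ end only. Where the CpG ratio around the annotated 5′ end exceeded 0.6, 5860 of 10083 protein-coding genes (58.1%) had a promoter peak, and elsewhere 2874 of 11855 (24.2%). Among the 8 genes only Slc1a2 (0.810) and Sox9 (0.804) exceeded 0.6. The others were Slc1a3 (0.554), Aldh1l1 (0.313), Aqp4 (0.267), Fabp7 (0.262), Gfap (0.235) and S100b (0.169).

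A list of 40 other genes of astrocytes, Bergmann glia and radial glia had a promoter peak in 18 (45.0%, Wilson 95% interval 30.7 to 60.2), and in 15 at the principal start. The median signal of these peaks was 75.5, against 75.4 over protein-coding genes. The strongest were at Clu (221), which encodes the chaperone clusterin, at Nes (189.6), the intermediate filament nestin of neural stem cells, at the receptor gene Gpr37l1 (134) and at Cst3 (119.7), which encodes the protease inhibitor cystatin C. Acsbg1 and Agt were among the genes with none. The window median was 12.5 peaks (range 2 to 30). Of 21 paralogues of the 8 genes, 10 had a promoter peak (47.6%, interval 28.3 to 67.6). The strongest were at S100a6 (214.5), Prph (186), Slc1a4 (176) and Fabp5 (143), and Aldh1l2, Aqp1 and Aqp11 had none. Vim is in both lists.

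**Figure D2:**
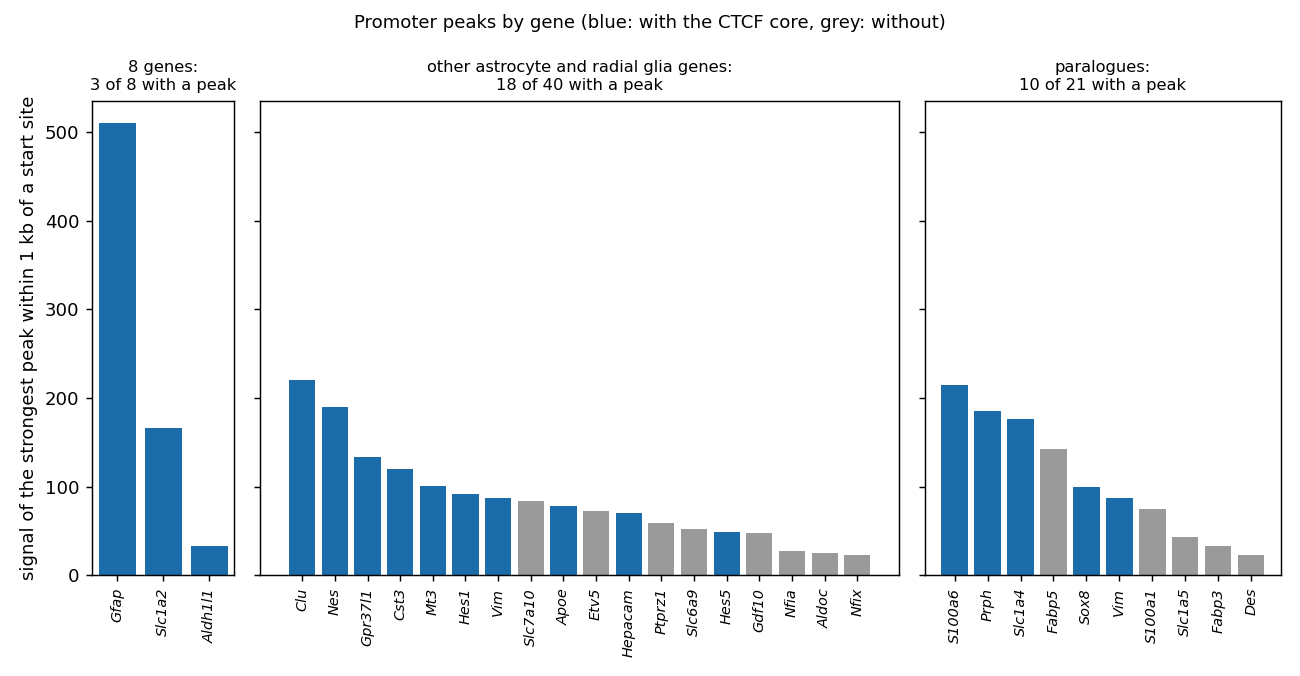
Signal of the strongest peak within 1 kb of a start (vertical axis, the caller's score without a unit) for the genes that had one, in 3 panels: the 8 genes, the 40 other astrocyte and radial glia genes and the 21 paralogues, with bars in blue for a core and grey for none. Gfap stands at 510.3, while the tallest bars in the other panels are Clu at 221 and S100a6 at 214.5. The Gfap peak lies at the start of a noncoding transcript, 3870 bp from the principal coding start.

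The number of peaks per window differed widely between the genes. Sox9 had 4, Fabp7 and Aqp4 had 5, Slc1a2, Slc1a3 and S100b had 10, Gfap had 14 and Aldh1l1 had 26. The median over protein-coding genes was 10 (quartiles 5 and 15). Per 100 kb of window the order was Aldh1l1 (8.29), Gfap (6.56), S100b (4.82), Slc1a3 (3.61), Slc1a2 (3.01), Fabp7 (2.46), Aqp4 (2.26) and Sox9 (1.95), where the median of protein-coding genes was 3.95. So 3 of the 8 exceeded that median. The number of other protein-coding genes in the window was 8 at Gfap, 5 at Aldh1l1 and 4 at S100b. It was 2 at Slc1a2 and Fabp7, 1 at Aqp4 and 0 at Sox9 and Slc1a3. A relation between this number and the peak density was not tested.

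**Figure D3:**
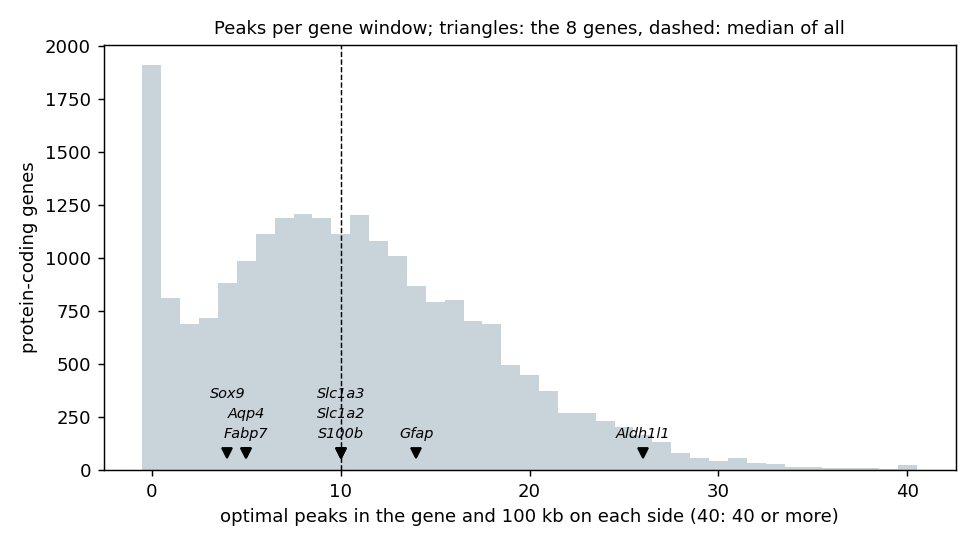
Number of protein-coding genes (vertical axis) by the number of optimal peaks in the gene and 100 kb on each side (horizontal axis, genes with 40 or more drawn at 40). Triangles mark the 8 genes, from 4 peaks at Sox9 to 26 at Aldh1l1, and the dashed line marks the median of 10.

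The nearest peaks with a core outside each end of the gene gave 3 arrangements. They pointed towards each other around Aldh1l1 and Fabp7, away from each other around Gfap, Slc1a3 and S100b, and in the same direction around Slc1a2, Sox9 and Aqp4. The span between them ranged from 36.5 kb at Gfap to 259 kb at Sox9, whose downstream partner lay beyond the window. The assignment depended on how strictly the core was matched. With at most 1 mismatch Fabp7 and Sox9 changed places, and with at most 3 mismatches Gfap and Aqp4 did. Aldh1l1, Slc1a2, Slc1a3 and S100b kept their arrangement at 1, 2 and 3 mismatches and in the conservative IDR set. Loops were not measured.

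Every one of the 84 peaks overlapped a peak in the lists of both libraries, each of 300000 peaks. The optimal set was filtered on how well ranks repeat, so this overlap is not independent evidence of replication. In both lists 67 of them ranked within the 62686 strongest, 8 did so in replicate 1 only, 4 in replicate 2 only and 5 in neither. The median ratio between the ranks of a peak was 1.16, and 78 of 84 ranks agreed within 2-fold. The largest ratio, 6.04, was that of the peak at the 5′ end of Gfap. Spearman's rho between the ranks was 0.964. This is a correlation across peaks that share 2 libraries and belong to a set filtered on how well ranks repeat, and it is given as a description. Of the 84 peaks, 74 were also overlapped by a peak of the conservative IDR set, which holds 59979 peaks. The conservative set itself had 82 peaks in the same windows. For the counts in this paragraph, the shares over all optimal peaks are not given.

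**Figure D4:**
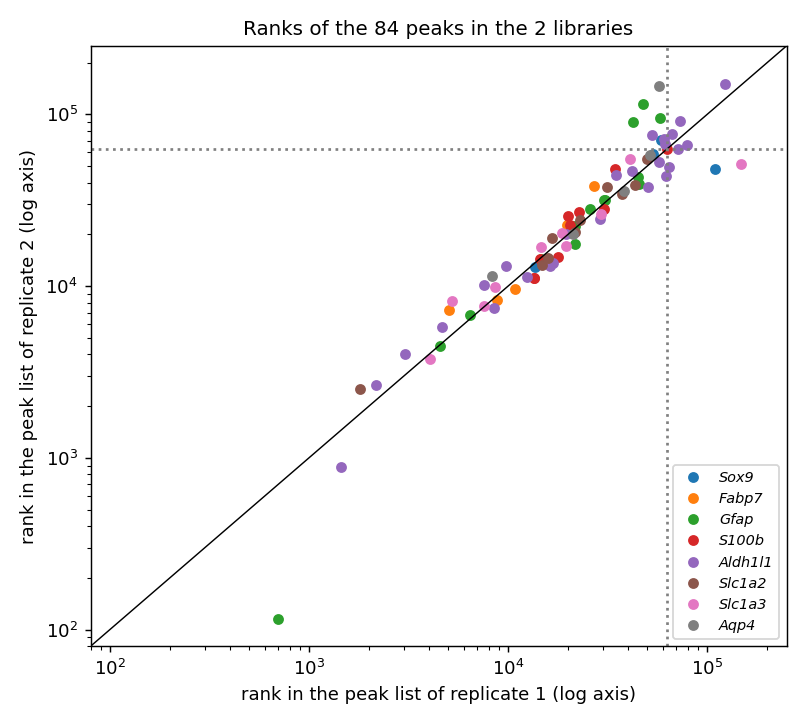
Rank of each of the 84 peaks in the list of replicate 1 (horizontal axis) and replicate 2 (vertical axis), both log axes, coloured by gene. The line marks equal ranks and the dotted lines rank 62686. The lowest point, and the farthest from the line, is the peak at the 5′ end of Gfap (701 and 116). The intron 2 peak of Slc1a3 (148047 and 51126) is the point farthest to the right.

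Aqp4 encodes aquaporin-4, the water channel of astrocyte endfeet. The gene lies on chromosome 18 from 15389496 to 15410982 on the minus strand and has 5 peaks in its window: 1 upstream, 1 inside and 3 downstream. The peak inside had a signal of 33.4, no core and ranks of 51292 and 58270 in the libraries. It lay 1501 bp upstream of the principal start. The strongest, at 15351792 to 15352001, had a signal of 272 (rank 9382), a core on the plus strand and ranks of 8289 and 11370. It lay 37610 bp past the end of the gene, at a start of the noncoding RNA gene AC133525.3. Its neighbours there had signals of 55.7 and 22.9. The upstream peak had a signal of 142 and lay 55329 bp away, in an intron of Chst9. The 40.9 kb between Aqp4 and Chst9 held no optimal peak, and the 238 kb on the other side, up to Kctd1, held 3.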

How the data were processed

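Peak lists in the narrowPeak layout on mm10 were used as deposited: 1 of 300000 peaks for each of the 2 libraries, called against a control alignment, and a pooled list of 251251, per the labels and the deposited descriptions of the files. From these the authors derived the conservative (59979 peaks) and optimal (62686) IDR sets. Aligner, peak caller and IDR version were not given in the sources used here. Signal is a score deposited on the caller's own scale. The deposited q-value (−log10) reached its maximum in 64 of the 84 peaks and in 49919 of the 62677 optimal peaks on assembled chromosomes. It was not used to rank. The IDR score deposited in column 5 was 1000 in 64 of the 84 (76.2%, against 77.7% of the set). Precision is given only as 95% Wilson intervals, which cover counting error. P-values were not computed, and replicates 1 and 2 may be technical.

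Summits were assigned to GENCODE vM21 genes on GRCm38.p6, with 9 optimal peaks off the assembled chromosomes left out of genome-wide shares. A library's rank of a peak is that of its strongest peak overlapping by at least 1 bp. Principal starts are those of transcripts tagged principal in the annotation. The core search was tested on simulated sequence. Scripts used Python 3.11.15, pandas 2.3.3 and pysam 0.24.0. The text names all 8 genes, each peak in a gene or at its start, the strongest peak and nearest cores of each window, neighbouring genes, and per list up to 4 genes with the strongest promoter peak and at most 3 lacking a peak, taken alphabetically. A gene that this rule would name is not reported here. The 8 genes and all lists were chosen with earlier results of these data known. Alternatives were the 31343 strongest optimal peaks, the conservative set, each library's own 62686 strongest peaks, margins of 50 and 200 kb or the gene alone, promoters of 500 bp and 2.5 kb or 5′ ends only, 1 or 3 mismatches, core windows of 25 and 100 bp, merged summits and, added after seeing the data, principal starts only.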

Additional observations from a re-analysis of the deposited data

How the results depend on the processing

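The 84 peaks became 139 with a margin of 200 kb, 21 inside the genes alone and 50 among the 31343 strongest optimal peaks. With either library left out, the 62686 strongest peaks of the remaining one gave 78 to 82. The share with a core, 61.9%, was 80% among the 31343 strongest peaks, 39.3% with at most 1 mismatch, 83.3% with at most 3 mismatches and 51.2% within 25 bp of the summit, and 63.4% to 65.4% with a library left out. The 3 genes with a promoter peak became 5 with promoters of 2.5 kb (Aqp4 and Sox9 added) and 1 with principal starts only, an alternative chosen after seeing the data. The share of all protein-coding genes moved with the definition, from 39.8% to 49.2% and 33.1%. They were 4 with either library left out, Fabp7 being added without replicate 1 and Aqp4 without replicate 2. Of the 40 other genes, 18 with a promoter peak became 9 among the 31343 strongest peaks and 12 with promoters of 500 bp, where the share of all protein-coding genes was 20.2% and 32.3%, and 18 to 21 with a library left out. The strictness of the core match sets how many peaks have one, and the smaller set holds stronger peaks by construction. No paired analysis was possible because there is 1 group and no comparison between groups.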

Other observations

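The pooled list of both libraries held weaker peaks within 1 kb of a start at 4 of the 5 genes that had none in the optimal set. At Slc1a3 such a peak lay 58 bp from the 5′ end with a signal of 11.4, at Sox9 482 bp with 11.5 and at Fabp7 615 bp with 14.7. At Aqp4 the strongest lay 494 bp from a start within the gene with a signal of 24.6. S100b had none. The pooled ranks of these peaks were 119159, 117458, 91800 and 61942 of 251251, and in the libraries they ranked 139596 and 81782 (Slc1a3), 146033 and 81997 (Sox9), 103037 and 53119 (Fabp7) and 56679 and 97043 (Aqp4). At Slc1a3, Sox9 and Fabp7 the better rank was in replicate 2, and at Aqp4 in replicate 1. They did not pass the authors' IDR filter and are given as values. The pooled list is far longer than the optimal set of 62686 peaks. The share of all protein-coding genes with a pooled peak at a start is not given here, so the 4 of 5 has no background.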
